A study of Homo sapiens with 16 samples.

Results

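Genistein, an isoflavone of soy, was compared with bisphenol A (BPA), a monomer of plastics, in ECC-1 endometrial cancer cells. The comparison takes 4 of the 16 libraries of the series: both ECC-1 libraries that the labels assign to 100 nM genistein and both that they assign to 100 nM BPA, harvested after 8 h. All genes of the deposited tables enter. The other ECC-1 libraries, 2 with 10 nM 17β-estradiol and 2 with 0.02% DMSO as the vehicle, and the 8 T-47D breast cancer libraries with the same treatments were used for one shared estimate of the spread and as points of comparison. Every culture grew in 100 mm dishes and had spent the 5 days before in RPMI-1640 without phenol red, with 10% serum stripped of steroids by dextran and charcoal. Transposase-built libraries of polyadenylated RNA were not directional, so reads of a gene and of an antisense or overlapping partner are mixed. Whether replicates of a group were separate cultures is not stated, and p-values therefore reflect only how far these samples varied, which may be technical.

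Estrogen receptor alpha, the product of ESR1, is a nuclear receptor that binds estradiol and then activates or represses target genes from DNA sites called estrogen response elements and through partner proteins. In the endometrium it drives proliferation of the epithelium and induces the progesterone receptor. Genistein and BPA are both phenols that can occupy the same ligand pocket, and genistein is also known as an inhibitor of tyrosine kinases at doses well above those used here. The question addressed here is where the transcripts of a single cell line differed between the pair of compounds at a matched dose and time.

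Levels are RPKM, which are reads divided by transcript length and library depth, scaled between libraries. Differences are on the scale log2(scaled RPKM + 0.5), genistein minus BPA, with a standard error (SE) or a 95% interval from 1 limma fit over the 16 libraries. Because of the added 0.5, a low gene shows a smaller difference than its raw ratio would give. A gene was called at a Benjamini-Hochberg adjusted p under 0.05 over the 13834 genes tested. The files give no counts, and the steps between low RPKM values put the depth of the genistein libraries at 22.7 and 20.2 M reads and that of the BPA libraries at 22.1 and 28.4 M reads. In these 4 libraries, 1 RPKM of a 2 kb transcript corresponds to between 40.4 and 56.7 reads. The 95% interval of a gene had a median reach of 0.333 on either side (log2), so smaller differences were mostly not detectable even singly. Calls at the adjusted threshold took larger differences. The smallest called difference was 0.92 (DEGS2), while 1.06 (DHRS3) and 1.32 (G0S2) did not pass. Uncalled differences also included 1.46 and -1.88. Large as well as moderate rises or falls could thus go uncalled.

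Of the 13834 genes tested, 6 were higher with genistein (0.0434%) and 0 were lower. The 6 genes were PIM1, NPPC, DEGS2, MMP17, ALPP and ALPPL2. At an unadjusted p under 0.05, limma listed 205 genes (1.48%), of which 115 were higher (0.831%) and 90 lower with genistein (0.651%).

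PIM1 encodes a serine/threonine kinase that acts downstream of cytokine receptors. It stood at 7.65 and 7.19 scaled RPKM in the genistein libraries, against 2.94 and 2.66 in the BPA libraries. The groups lay far apart beside the spread within each, and the difference was 1.26 on the log2 scale (SE 0.143, limma adjusted p = 0.00348). The estradiol libraries held 9.09 and 8.12 and the DMSO libraries 1.99 and 2.00 scaled RPKM of PIM1. The genistein level thus lay nearer to that of estradiol, given at a lower dose, and the BPA level nearer to that of DMSO. Both BPA libraries still lay above both DMSO libraries. Against DMSO, PIM1 rose by 1.67 with genistein (limma adjusted p = 7.82e-06; 111 genes rose, 0.802% of those tested), while the BPA difference of 0.40 did not pass (adjusted p = 1; 27 genes rose, 0.195%). Those comparisons share the DMSO libraries.

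NPPC, the gene of the precursor of C-type natriuretic peptide, was the lowest of the 6 in level. A gene needed 1 scaled RPKM in at least 2 libraries to be tested. In ECC-1 only both genistein libraries and the second estradiol library reached that for NPPC. Within this line it therefore entered the test through libraries where it is high, which limits its call. Its genistein libraries held 1.99 and 1.38 scaled RPKM, against 0.459 and 0.177 in the BPA libraries, and the groups did not overlap. The difference of 1.43 (95% interval 1.04 to 1.82, limma adjusted p = 0.00799) corresponds to a 2.69-fold higher value once 0.5 is added to both sides. NPPC was at 0.710 and 1.11 scaled RPKM in the estradiol libraries and at 0.124 and 0.0862 in the DMSO libraries. Both genistein libraries therefore stood above both estradiol libraries as well. No test of genistein against estradiol is reported here, since the doses differ.

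DEGS2 encodes an enzyme that desaturates and hydroxylates sphingolipids. It stood at 9.77 and 9.54 scaled RPKM with genistein, against 5.29 and 4.45 with BPA, a difference of 0.92 (SE 0.122, limma adjusted p = 0.00799). The estradiol libraries, at 8.67 and 10.4, spanned both genistein values, and the DMSO libraries, at 2.27 and 2.51, lay below both BPA values. MMP17 encodes a membrane-anchored matrix metalloproteinase. Its level was 10.8 and 8.35 scaled RPKM with genistein, against 4.14 and 3.61 with BPA, and the difference was 1.20 (SE 0.168, limma adjusted p = 0.00961). BPA itself raised MMP17 above DMSO, where it was at 0.874 and 0.770, by 1.72 (limma adjusted p = 0.0001), and genistein raised it by 2.92 (adjusted p = 3.47e-07). DEGS2 rose with both compounds against DMSO too, by 1.81 with genistein and 0.89 with BPA (limma adjusted p = 8.25e-07 and 0.00292).

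ALPP and ALPPL2, the placental and germ-cell alkaline phosphatases, are neighbouring genes for enzymes held at the cell surface. ALPP is also long known as a gene induced by estrogen in endometrial cancer cells. ALPP stood at 5.50 and 4.42 scaled RPKM with genistein, against 1.83 and 0.959 with BPA. Its difference of 1.56 (95% interval 1.10 to 2.02, limma adjusted p = 0.00961) was the highest among all tested genes. ALPPL2 stood at 8.34 and 7.17 with genistein, against 3.23 and 1.81 with BPA, a difference of 1.49 (SE 0.224, limma adjusted p = 0.0182). In each of these genes the first BPA library was the higher of its pair, and no genistein value came near either BPA value. Both compounds raised both genes above DMSO, ALPPL2 by 3.06 with genistein and 1.58 with BPA (limma adjusted p = 1.58e-06 and 0.00373). Of the 36-base windows of the ALPP transcript, 29.2% occur without a mismatch in the ALPPL2 transcript. Reads can thus match both genes, and the sources used here do not give how the authors assigned such reads, so the split between the pair is uncertain.

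The promoters of the phosphatase pair are shown because these genes had the highest differences and their windows hold a short motif of estrogen receptor sites. The letters GGTCA, searched on either strand, form each arm of the palindrome that estrogen receptors bind. The windows run from 250 bases before to 50 bases after the gene start as RefSeq gives it on GRCh38.p14, ALPP at chr2:232378501-232378800 and ALPPL2, listed there as ALPG, at chr2:232406594-232406893, both on the plus strand. Capitals mark each GGTCA.
ALPP: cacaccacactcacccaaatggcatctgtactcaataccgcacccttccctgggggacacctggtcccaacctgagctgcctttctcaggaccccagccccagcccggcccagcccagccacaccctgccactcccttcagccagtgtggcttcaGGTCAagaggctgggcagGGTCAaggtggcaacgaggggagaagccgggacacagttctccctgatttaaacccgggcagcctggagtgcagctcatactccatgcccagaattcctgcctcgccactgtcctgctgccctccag
ALPPL2: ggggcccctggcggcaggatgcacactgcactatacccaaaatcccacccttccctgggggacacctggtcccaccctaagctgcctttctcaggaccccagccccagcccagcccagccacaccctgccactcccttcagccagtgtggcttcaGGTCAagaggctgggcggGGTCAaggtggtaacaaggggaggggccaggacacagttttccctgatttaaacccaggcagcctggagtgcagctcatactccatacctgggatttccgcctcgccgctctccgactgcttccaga
Each window holds 2 such matches, in the same direction, beginning 95 and 77 bases before the gene start. The windows were 83% identical. Neither holds the full palindrome, in which GGTCA is followed after 3 bases by its reverse complement, and which occurs in 18 of 27305 promoters (0.0659%), while GGTCA alone occurs in 37.7% of them. The letters GGTCA were not in the windows of PIM1, NPPC and DEGS2, and MMP17 had no entry in the table, so 5 of the 6 called genes were searched. Among genes raised by estradiol in ECC-1 with an entry in that table, 31 of 115 windows held GGTCA (27%), which is below the share over all promoters.

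**Figure D1:**
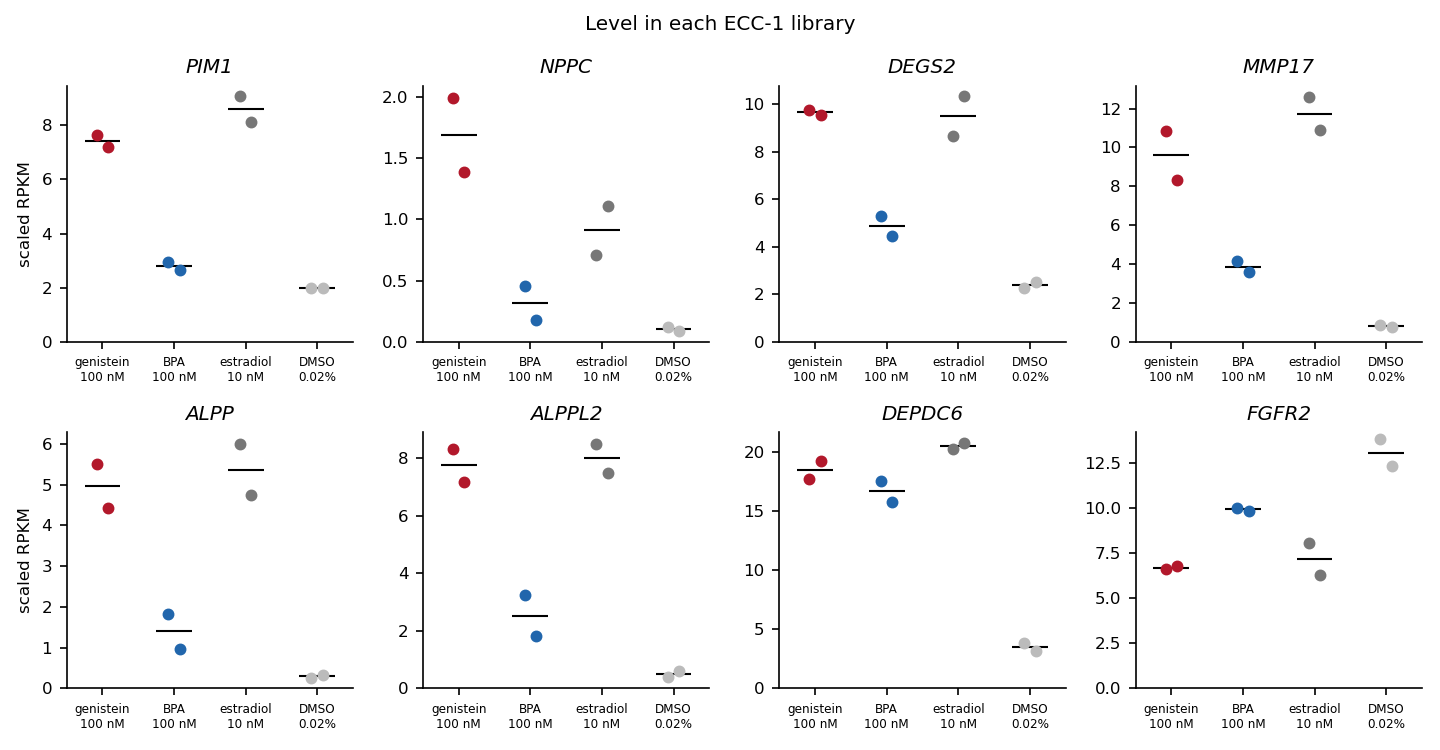
Scaled RPKM (vertical axes, linear, from 0) in each ECC-1 library for the 6 called genes and for DEPDC6 and FGFR2, by treatment; points are libraries (n = 2 a group) and bars are means. The 6 called genes sit higher in both genistein libraries than in both BPA libraries, DEPDC6 differs little (0.15 on the log2 scale), and FGFR2 is lower with genistein.

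The calls rest on a spread shared with the other groups. Without the first genistein library or without the second BPA library none of the 6 genes passed in the limma fit (149 and 137 genes at an unadjusted p under 0.05), without the second genistein library MMP17, NPPC and PIM1 passed, and a fit on the 8 ECC-1 libraries alone called none (327 genes at an unadjusted p under 0.05). ALPPL2 also lost its call without either ECC-1 estradiol library. The differences themselves stayed above 0 in each of these fits, and across all alternatives that of PIM1 ranged between 1.15 and 1.38 and that of ALPP between 1.22 and 1.90.

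The next smallest p-values among genes higher with genistein belonged to 4 genes that did not pass. Only genes with no overlap and a mean of at least 1 scaled RPKM were ranked for this. ANO1, a calcium-activated chloride channel, stood at 18.8 and 17.6 scaled RPKM with genistein, against 10.3 and 7.15 with BPA (1.04, limma adjusted p = 0.0758). SLCO2A1, the prostaglandin transporter, stood at 9.17 and 7.09 against 4.32 and 3.08 with BPA (1.04, limma adjusted p = 0.09). CILP, which encodes a matrix protein of cartilage, differed by 0.90 and the gel-forming mucin gene MUC5B by 0.85, with limma adjusted p = 0.084 and 0.0907. Both genistein libraries lay above both BPA libraries in each of the 4.

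Among genes lower with genistein, none passed. The 10 with the smallest p-values among those with no overlap and a mean of at least 1 scaled RPKM follow. Over all tested genes the lowest difference was -1.88, in a gene not listed here. FGFR2, a receptor for fibroblast growth factors, was at 6.60 and 6.76 scaled RPKM with genistein, against 9.97 and 9.84 with BPA. The libraries of each compound lay close together and the groups apart, yet the difference of -0.54 (95% interval -0.83 to -0.24) had an adjusted p = 0.699 in limma. CDKN1C, which encodes the cyclin-dependent kinase inhibitor p57, stood at 2.54 and 1.94 with genistein, against 3.89 and 3.89 with BPA (-0.69, limma adjusted p = 1). NRARP, a feedback inhibitor of Notch signalling, differed by -0.41, the anion exchanger gene SLC26A7 by -0.52 and the chemokine gene CCL28 by -0.60. The remaining genes of that group were GGTLC2 (-0.73), TCF15 (-0.52), HHLA3 (-0.45), SNORA25 (-1.06) and TRIM43 (-0.64), each with both genistein libraries below both BPA libraries. GGTLC2 and TRIM43 have near-identical copies in the genome, and a small nucleolar RNA such as SNORA25 is poorly measured in libraries of polyadenylated RNA.

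All 6 called genes were also raised by estradiol against DMSO, in libraries that are not part of the genistein and BPA pair. Both comparisons take the spread of a gene from the same fit, so a gene of small spread passes more easily in both. Estradiol raised 196 genes (1.42% of those tested) and lowered 66 (0.477%) in ECC-1. Of the 196 raised genes, 192 (98%) were higher with genistein than with BPA, where 46.8% of all tested genes were. Of the 66 lowered genes, 61 (92.4%) were lower with genistein, where 52.6% of all tested genes were. Both genistein libraries lay above both BPA libraries for 173 of the raised genes (88.3%), beside 14.8% of all tested genes. For the lowered genes the corresponding count was 50 (75.8%), beside 16.3% of all tested genes.

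The size of the difference was moderate for most of these genes. Its median over the raised genes was 0.33 and its quartiles were 0.20 and 0.50, while the median over all tested genes was -0.01. In 49 of the 196 the difference exceeded 0.5, and in 10 it exceeded 1. Over the lowered genes the median was -0.23, with 5 genes beyond 0.5 in the downward direction. Singly, 94 raised and 21 lowered genes had an unadjusted p under 0.05 in that direction, and the 6 named above passed the adjusted threshold. Of the 205 genes with an unadjusted p under 0.05, 115 were changed by estradiol (56.1% of the 205 and 43.9% of the 262 changed by estradiol), and all 115 differed in the direction of estradiol. As both comparisons share the estimate of a gene's spread, this overlap is not independent of it. No test was made on these sets. Without the second estradiol library the raised set grew to 1113 genes, of which 986 were higher with genistein, with a median of 0.10, and the lowered set to 1039 genes, of which 883 were lower, with a median of -0.07. Without the first DMSO library the lowered set shrank to 17 genes with a median of -0.37.

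The difference grew with the size of the estradiol response. It had a median of 0.24 over the 105 genes that estradiol raised by less than 1 on the log2 scale, of 0.48 over the 80 raised by 1 to 2, and of 1.04 over the 11 raised by more than 2. Pearson's r across genes between the difference and the estradiol response was 0.554 over the 13834 genes and 0.736 over the 196 raised genes, as a description only, since genes of a library are not independent and share its depth.

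**Figure D2:**
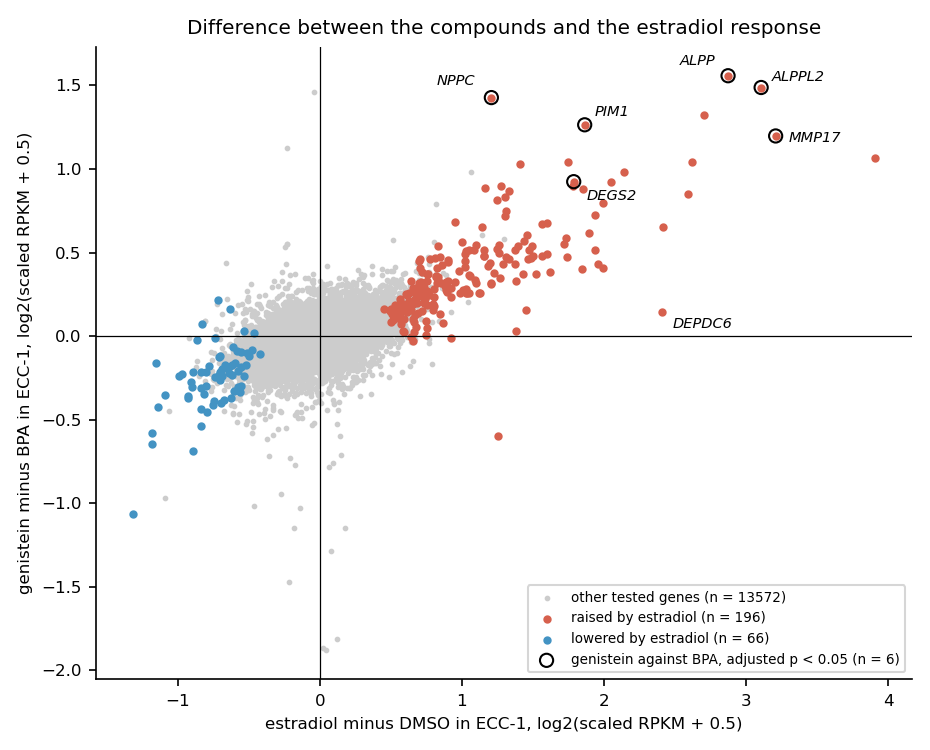
Each point is a tested gene, with the estradiol minus DMSO difference on the horizontal axis and the genistein minus BPA difference on the vertical axis, both log2(scaled RPKM + 0.5). The genes raised by estradiol (red, n = 196) lie mostly above 0, those lowered (blue, n = 66) mostly below 0, and the 6 circled called genes are all among the raised ones.

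Seen library by library, both genistein libraries stood beyond both BPA libraries over these sets. Relative to the mean of the DMSO libraries, the median of the 196 raised genes was 0.72 and 0.75 in the genistein libraries and 0.45 and 0.35 in the BPA libraries, beside 1.02 and 0.88 in the estradiol libraries. The 66 lowered genes had medians of -0.50 and -0.49 with genistein and -0.32 and -0.20 with BPA, beside -0.75 and -0.68 with estradiol. The BPA libraries differed from each other more than the genistein libraries did. DMSO and estradiol libraries chose the sets, and the estradiol dose was lower, so only the genistein and BPA values are set against each other here.

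**Figure D3:**
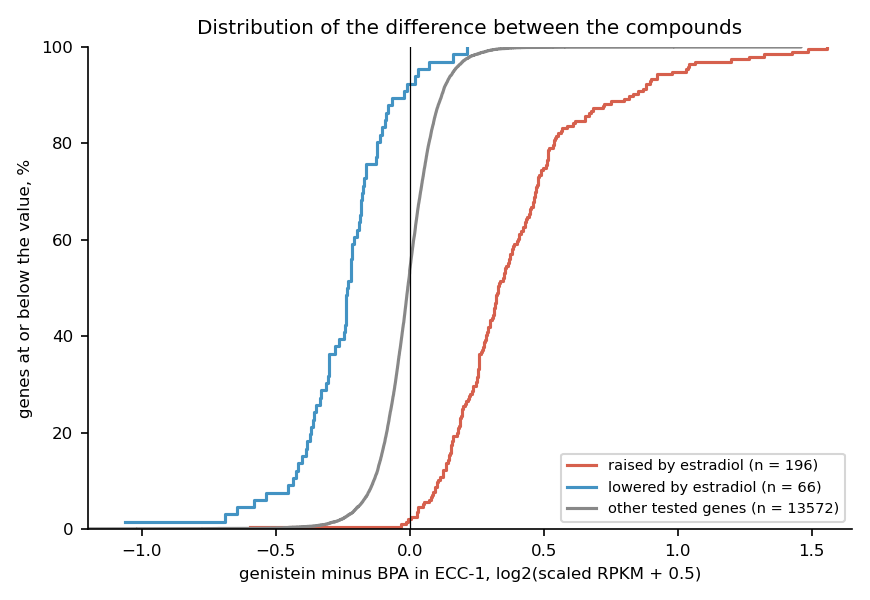
Cumulative share of genes (vertical axis, percent) at or below each genistein minus BPA difference (horizontal axis, log2(scaled RPKM + 0.5)), for genes raised by estradiol, genes lowered by estradiol and the other 13572 tested genes. The curve of the raised genes is shifted to the right (median 0.33), that of the lowered genes to the left (median -0.23), and that of the others is centred near 0 (median -0.01).

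The 12 genes with the largest rises under estradiol showed how far this varied between genes. DHRS3, which reduces retinaldehyde to retinol, had the largest estradiol response and stood at 17.2 and 26.0 scaled RPKM with genistein, against 8.28 and 11.7 with BPA. The difference was 1.06, but the libraries of both compounds were spread widely (95% interval 0.34 to 1.79), and it did not pass (limma adjusted p = 1). G0S2, an inhibitor of triglyceride lipase, stood at 13.8 and 18.2 with genistein, against 6.57 and 5.55 with BPA (1.32, limma adjusted p = 0.245). The matrix glycoprotein gene THBS1 stood at 59.3 and 60.9 with genistein, against 36.3 and 25.1 with BPA (0.98, limma adjusted p = 0.784). SLC6A6, the taurine transporter, differed by 0.92, the membrane carbonic anhydrase gene CA12 by 0.80 and HES2, of the HES family of repressors, by 0.65, and none of the 3 passed.

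DEPDC6, also called DEPTOR, which binds and inhibits the mTOR kinase, stood apart from these. It was at 17.7 and 19.3 scaled RPKM with genistein, against 17.6 and 15.8 with BPA, beside 20.2 and 20.8 with estradiol and 3.80 and 3.13 with DMSO. Both compounds raised it over DMSO, by 2.26 with genistein and 2.12 with BPA (limma adjusted p = 4.31e-07 and 2.2e-06). The difference between them was 0.15 (95% interval -0.15 to 0.44), so a difference of more than 0.44 lies outside the interval, although equality is not shown. Of the 11 genes raised more than 2 by estradiol it was the only one whose difference did not exceed 0.5.

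The genes that estradiol lowered most differed less between the compounds than most of the largest rises, but their estradiol responses were smaller too. With estradiol the 5 named here changed by -1.09 (TMEM139) to -1.18 (TRIM43B), and the largest rises by 1.99 (CA12) to 3.91 (DHRS3). Over the 80 genes that estradiol raised by 1 to 2, the median difference between the compounds was 0.485. TMEM139, a membrane protein gene, stood at 11.3 and 10.3 scaled RPKM with genistein, against 13.7 and 14.2 with BPA, a difference of -0.36 (95% interval -0.63 to -0.08). BMF, a proapoptotic member of the BCL2 family, differed by -0.43, and the near-identical TRIM43 and TRIM43B by -0.64 and -0.58. PRR15L (-0.16) had an interval that included 0, and none of these 5 genes passed the adjusted threshold.

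**Figure D4:**
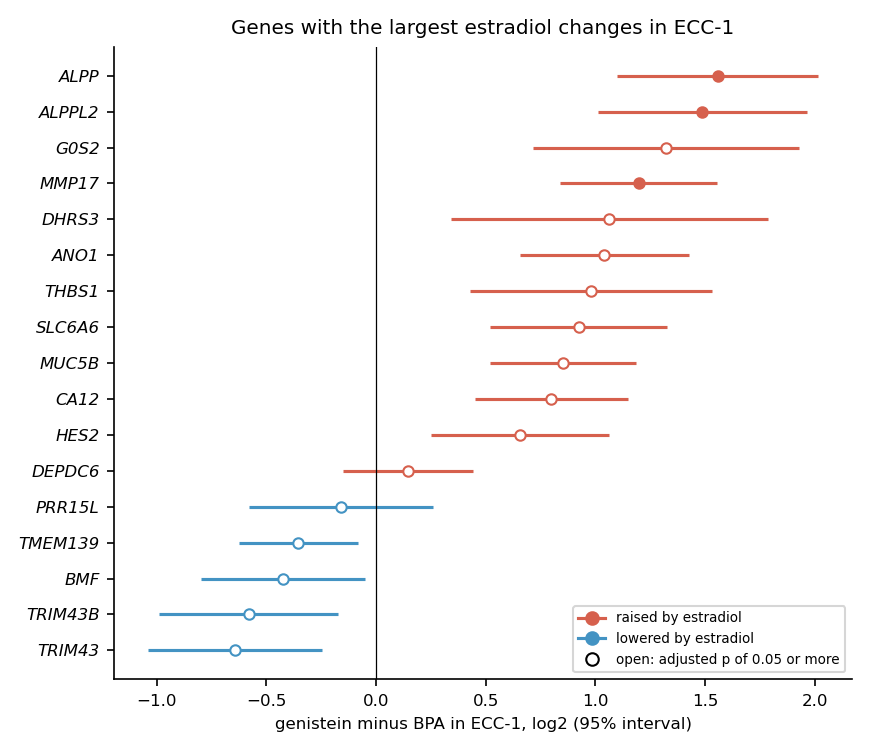
Genistein minus BPA difference in ECC-1 (log2, horizontal axis, points) with its 95% interval (bars) for the 12 largest rises (red) and 5 of the largest falls (blue) under estradiol in genes averaging 1 scaled RPKM or more. Filled points passed the adjusted threshold; among the rises the interval of DEPDC6 alone includes 0.

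The exceptions to the common direction are named here after their values were seen. Among the raised genes, ADD2 (-0.03), HHLA2 (-0.01) and PRO0628 (-0.01) differed by almost nothing, with overlapping libraries. The small nucleolar RNA SNORA4 differed by -0.60, at 0.616 and 1.05 scaled RPKM with genistein, against 1.28 and 1.72 with BPA (95% interval -1.24 to 0.05). Among the lowered genes, BLNK (0.03), CALY (0.07) and GSTK1 (0.02) overlapped between the compounds. The keratin genes KRT6B (0.22) and KRT6C (0.16) had both genistein libraries above both BPA libraries, with intervals that included 0.

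Several well-known estrogen target genes were higher with genistein without passing. GREB1, an estrogen receptor cofactor gene, stood at 3.15 and 3.28 scaled RPKM with genistein, against 2.35 and 1.86 with BPA (0.52, 95% interval 0.07 to 0.97, limma adjusted p = 1). The progesterone receptor transcript PGR was low, at 0.508 and 0.533 with genistein, against 0.302 and 0.168 with BPA (0.48). IGFBP4, which binds insulin-like growth factors, differed by 0.37 and the growth regulator MYC by 0.24, MYC being at 37.2 and 34.5 with genistein, against 29.5 and 31.2 with BPA. Both genistein libraries lay above both BPA libraries in these 4 genes, as they did in 14.8% of all tested genes. PDZK1, a scaffold protein gene, had both genistein libraries below both BPA libraries, at 1.11 and 0.900 against 1.39 and 1.14 with BPA (-0.23). CCND1, the cyclin D1 gene, overlapped between the compounds (0.08), at 249.4 and 254.2 with genistein, against 249.9 and 227.6 with BPA. CXCL12 and TFF1 were listed at 0 in both genistein libraries and in the second BPA library, and at 0.0226 and 0.0860 scaled RPKM in the first BPA library.

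The receptor transcript itself was slightly lower with genistein. ESR1 stood at 17.4 and 17.6 scaled RPKM, against 20.2 and 19.4 with BPA, a difference of -0.17 that did not pass (limma adjusted p = 1). ESR2, the gene of estrogen receptor beta, for which genistein is known to have the higher affinity, was at 0.276 and 0.279 with genistein, against 0.127 and 0.295 with BPA, too low to be tested. The aryl hydrocarbon receptor target CYP1A1 varied more within each compound than between them, at 0.841 and 1.89 with genistein, against 0.754 and 2.11 with BPA (-0.01).

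Beyond single genes, 19 lists of known function and 5 of cell type markers were described by their counts and medians, beside a median of -0.01, 46.8% above 0 and 6 called genes over all tested genes. Of 46 tested estrogen-responsive genes 34 were higher with genistein, with a median of 0.09, and 13 of the 46 belonged to the genes raised by estradiol here. Of 22 tested estrogen-linked genes of the endometrium 16 were higher, with a median of 0.08, and 2 passed, ALPP and ALPPL2. In that list 8 of the 22 belonged to the genes raised by estradiol here. Lists and members were chosen with earlier results of these data known, so these counts are not independent of the data. TSKU, a secreted leucine-rich repeat protein gene, and SLC9A3R1, which encodes the scaffold protein NHERF1, differed by 0.52 and 0.47. TGFA, a ligand of the EGF receptor, stood at 128.8 and 126.7 scaled RPKM with genistein, against 103.9 and 89.2 with BPA (0.41). HSD11B2, which inactivates cortisol, stood at 3.54 and 3.34 against 1.89 and 2.04 with BPA (0.68), and none of these 4 genes passed.

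Ribosome biogenesis genes leaned toward genistein in nearly every member, by small amounts. Of the 30 tested, 29 were higher with genistein, 20 had both genistein libraries above both BPA libraries (beside 14.8% of all tested genes), and the median was 0.14. None passed the threshold, and 4 of the 30 were raised by estradiol. PPAN and RRP12, which act in the maturation of ribosomal subunits, each differed by 0.31. PPAN was at 32.4 and 28.4 scaled RPKM with genistein, against 24.1 and 24.8 with BPA. DKC1, the pseudouridine synthase of box H/ACA particles, differed by 0.21 and the RNA helicase gene DDX21 by 0.19.

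Genes of G2 and mitosis leaned the other way. Of 30 tested, 24 were lower with genistein, 14 had both genistein libraries below both BPA libraries (beside 16.3% of all tested genes), the median was -0.07, and none passed. NUSAP1, a spindle protein gene, stood at 79.4 and 87.2 scaled RPKM with genistein, against 90.5 and 96.5 with BPA (-0.17), and the kinase gene NEK2 differed by -0.16. Genes of G1/S and DNA replication were evenly split, with 16 of 33 higher and a median of -0.01.

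None of the other lists of known function held a called gene, and their medians lay between -0.06 and 0.06. Glycolysis and hypoxia genes had 17 of 25 members higher with genistein (0.06), among them HK1 (0.23). In 11 of the 25 both genistein libraries lay above both BPA libraries, beside 14.8% of all tested genes. Retinoid handling genes had 10 of 16 lower (-0.06), although DHRS3 and the receptor gene RARA (0.30) were higher and the binding protein gene CRABP1 was lower (-0.48). Sterol and fatty acid synthesis genes had 18 of 28 lower (-0.03), with INSIG1, which restrains sterol synthesis, at -0.21 and the fatty acid synthase gene FASN at 0.22. NRF2 targets (0.02), genes of the unfolded protein and amino acid stress responses (-0.02), interferon-induced genes (0.00) and BCL2 family genes (-0.01) were centred close to 0. Immediate early and MAPK feedback genes (0.05), steroid receptors and cofactors (0.05) and mucins and secreted proteins (-0.05) lay a little further out. Values near 0 were also found for the estrogen-metabolizing enzymes (-0.01), EGF receptor ligands and receptors (-0.02), aryl hydrocarbon receptor targets (-0.01) and the glucocorticoid and progesterone receptor targets (0.02).

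**Figure D5:**
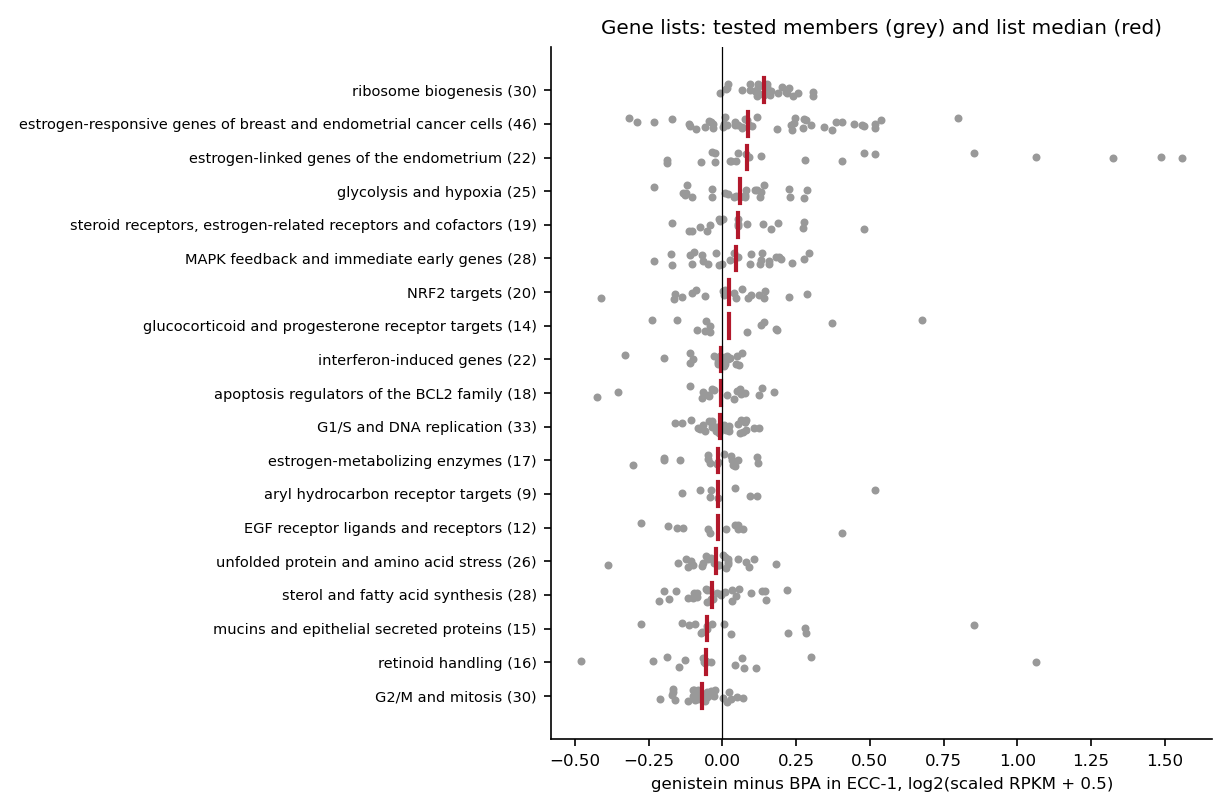
Genistein minus BPA difference (horizontal axis, log2(scaled RPKM + 0.5)) of each tested member (grey points) of 19 gene lists, with the list median (red bar) and the number tested in brackets. Ribosome biogenesis has the highest median (0.14) and G2/M and mitosis the lowest (-0.07), and the largest single differences are in the lists of estrogen-linked and retinoid genes.

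Among the cell type markers, the Mullerian transcription factor genes PAX8 and EMX2 were present in these 4 libraries and near 0 in T-47D. The other transcription factor genes of that list are not given here. PAX8 stood at 81.1 and 72.8 scaled RPKM with genistein, against 82.0 and 90.8 with BPA, and at no more than 0.0246 in the genistein and BPA libraries of T-47D. EMX2 ran from 14.3 to 15.7 over the 4 libraries and did not exceed 0.0200 in those of T-47D. MUC1, on the same list, went the other way, at 1.08 to 1.78 over the 4 libraries and 219.8 to 261.8 in those of T-47D. The summed markers of that list did not separate the lines, since the keratin gene KRT8 carried most of them: they came to 3654 and 3855 with genistein, against 3496 and 4257 with BPA, and to between 3483 and 5155 in T-47D. Luminal breast markers summed to 5.89 and 9.50 with genistein, against 8.86 and 6.15 with BPA, where the genistein and BPA libraries of T-47D held 946.3 to 1145, and PIP and SCGB2A2 were at 0 in all 4. ANKRD30A was at 0.249 and 3.18 with genistein, against 2.60 and 0.168 with BPA, and GATA3 at 0.0137 and 0.375 against 0.228 and 0.0110, so the second genistein and the first BPA library were the higher ones in both genes. In the T-47D libraries of these compounds GATA3 was at 292.6 to 321.2, but ANKRD30A only at 0.316 to 1.59, below both of those ECC-1 values. Whether reads of another library are present in these 2 libraries was not tested. Without the first BPA library all 6 called genes passed, and without the second genistein library 3 did. Fibroblast markers summed to between 10.6 and 13.0 over the 4 libraries, leukocyte markers to 5.60 and 6.15 with genistein, against 5.55 and 5.06 with BPA, and endothelial markers to 1.70 and 1.69 with genistein, against 1.56 and 1.46 with BPA. In these lists 9 of 10, 8 of 10 and 7 of 8 genes stayed below 1 scaled RPKM in all 4 libraries. Tested were 12 of 12 Mullerian, 7 of 9 luminal breast, 4 of 10 fibroblast, 2 of 10 leukocyte and 1 of 8 endothelial markers. The others were too low to be tested. No tested marker passed, and the part of these markers in the results was not tested.

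The same pair of compounds differed in T-47D too, where 53 genes were higher with genistein (0.383%) and 2 were lower (0.0145%). Whether the difference between the compounds itself differed between the lines was tested as an interaction, ECC-1 minus T-47D, and 2 genes passed (0.0145%), beside 335 at an unadjusted p under 0.05 (2.42%). PIM1 was at 0.629 and 0.654 scaled RPKM with genistein in T-47D, against 0.726 and 0.821 with BPA, and its interaction was 1.42 (SE 0.202, limma adjusted p = 0.0286). CXCL12, a chemokine gene, was at 37.4 and 40.8 with genistein in T-47D, against 5.13 and 9.20 with BPA, and was listed at or near 0 in ECC-1, so its interaction of -2.45 (SE 0.312, limma adjusted p = 0.0153) rests on T-47D alone. The interaction of the other 5 genes called in ECC-1 ran from 0.72 (DEGS2) to 1.48 (ALPP), with limma adjusted p between 0.105 and 0.403, so a difference between the lines was not shown for them. NPPC was listed at 0 in all 4 of these T-47D libraries, and ALPP and ALPPL2 stayed at or below 0.204 scaled RPKM there. Without any 1 of the 4 genistein and BPA libraries of ECC-1, or without the second genistein library of T-47D, neither PIM1 nor CXCL12 passed in the interaction, and without the second BPA library of T-47D 15 genes did.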

How the data were processed

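The deposited tables, 1 for each library, hold the authors' RPKM values of 32062 RefSeq transcripts. Bowtie and hg19 are named per the submitters' processing notes; versions, read counting and the handling of reads with several matches are not given in the sources used here. Of 21453 symbols, 5983 have several transcripts, of which the one highest on average was kept. Libraries were scaled by median ratios to geometric means, computed on 7547 genes at 5 RPKM or more in every library (factors 0.938 to 1.05). Genes with at least 1 scaled RPKM in at least 2 of the 16 libraries, 13834 in all, were tested as log2 values of the deposited RPKM after scaling and a pseudocount of 0.5. limma 3.58.1 (R 4.3.3) fitted 8 group means with eBayes and a mean-variance trend (8 residual and 6.91 prior degrees of freedom). With 2 libraries a group, an exact permutation test within the pair cannot go below p = 0.333. The fit was also run on simulated data in which a gene had the same spread in every library, and the outcome is not given here. The replicate spreads given below differed between groups, so that run cannot speak to how stable the calls are.

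Low RPKM values lie on steps of 1 read; with transcript lengths for 93.1% of transcripts, these gave depths of 17.4 to 29.5 M reads per library; 61.6 to 63.8% of values under 10 reads came out whole to within 0.1 read, a share that chance alone would put at 20%. As this share is far from complete, no count test was run. No 2 libraries were identical. Between replicates, the log2 difference had an SD over genes of 0.171 for genistein, 0.169 for BPA, 0.187 for DMSO and 0.343 for estradiol in ECC-1, and the first estradiol library correlated least with the other ECC-1 libraries.

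Genes named are those called, the 10 of smallest p in each direction with no overlap and a mean of at least 1 scaled RPKM, the largest estradiol rises (12) and falls (6), a panel of 10 genes, genes of the interaction, and up to 4 members per list. From these the text names a part, and 1 gene is not reported here. The members and the lists were chosen with earlier results of these data known. Alternatives varied the scaling, pseudocount, low-value filter, libraries and spread of the fit, replicate block, transcript choice and estradiol threshold. Estrogen receptor binding data were not analysed here. The annotation at hand is on GRCh38, so no hg19 coordinates are given.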

Additional observations from a re-analysis of the deposited data

Results flagged for a closer look

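PIM1 was marked because the genistein minus BPA difference itself differed between the lines: it was 1.26 in ECC-1 and -0.16 in T-47D, an interaction of 1.42 (limma adjusted p = 0.0286) that passed in 12 of 23 alternatives. CXCL12 was marked on the same ground in the other direction, with -0.03 in ECC-1 and 2.42 in T-47D, an interaction of -2.45 (limma adjusted p = 0.0153) that passed in 17 of 24 alternatives.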

How the results depend on the processing

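Scaling had little effect: the same 6 genes passed with values as deposited, upper-quartile scaling, quantile normalization and no mean-variance trend. The number higher with genistein was 11 with a pseudocount of 1, 2 with a mean of at least 5 RPKM, 0 in the fits on the 8 ECC-1 or the 4 genistein and BPA libraries (327 and 710 genes at an unadjusted p under 0.05), 14 without both first estradiol libraries, 45 with array weights, and 0 to 9 with 1 library of the pair left out. The number lower was 2 with no filter on low values and 7 with array weights. ALPP and ALPPL2 lost the call with a pseudocount of 0.1, and ALPPL2 also with no filter on low values and without either ECC-1 estradiol library. Over the alternatives that tested it, the call held in 16 of 25 for ALPPL2, 19 of 25 for ALPP, 21 of 25 for NPPC and PIM1, 21 of 26 for DEGS2 and 22 of 26 for MMP17. The interaction called 0 genes with a pseudocount of 0.1, 6 with 1, 1 with a mean of at least 5 RPKM, 9 without both first estradiol libraries, 4 with no trend, 40 with array weights, and 0 to 15 with 1 library left out.

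The median over genes raised by estradiol was 0.51 for a set of at least 2-fold, 0.42 with a pseudocount of 0.1, 0.45 in the ECC-1 fit, 0.47 with array weights, and 0.10 to 0.48 with 1 library left out. The share higher was 88.6 to 100.0% with 1 library left out. For lowered genes the median was -0.50 at 2-fold, -0.33 with array weights and -0.37 to -0.067 with 1 library left out, and the share lower was 100.0% at 2-fold and with array weights and 85.0 to 95.3% with 1 library left out. The direction of these sets did not turn in any alternative.

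Among single genes the sign turned only in genes close to 0. With quantile normalization CYP1A1 was at 0.0131, HHLA2 at 0.0097 and PRO0628 at 0.0178. With 1 library left out ADD2 ranged between -0.17 and 0.10, CALY between -0.0194 and 0.161, CYP1A1 between -0.54 and 0.51, GSTK1 between -0.0522 and 0.091, HHLA2 between -0.19 and 0.17, and PRO0628 between -0.0478 and 0.0366. The cause of these shifts was not tested.

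Deviations of genistein and BPA libraries with the same number correlated at -0.033 in ECC-1 and 0.209 in T-47D. Over all pairs of treatments the values ran from -0.191 to 0.301 in ECC-1 and from -0.225 to 0.409 in T-47D, so the numbers were not taken to pair the libraries. With a replicate block 10 genes were higher, the 6 among them, and 3 passed in the interaction. For a 2 kb transcript, 3 reads correspond to 0.0529 to 0.0743 RPKM in the genistein and BPA libraries, and levels near that rest on few reads.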
